A study of Mus musculus with 6 samples.

Results

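CT26 cells, a mouse colorectal cancer line, were compared at 24 h between a line that carries a hairpin against TGF-β1 and a line that carries a control hairpin. The knockdown line held the vector shRNA-TGF-β1-pSUPER gfp-neo and the control line held shRNA-Control-pSUPER gfp-neo, so both carry a pSUPER vector with the gfp-neo marker. Total RNA of 1 culture of each line was hybridised to 1 locked nucleic acid miRNA array, and each culture was raised and collected on its own, per the design text. The series holds 6 such arrays, with 1 of each line also at 48 h and 72 h. The labels word the times as hours of transfection, while the design text calls the lines stably transfected, so what 24 h counts from is unsettled. A mouse miRNA probe was included where its 4 spots averaged 50 or more, after background subtraction, on either array. This took 413 of the 1126 mouse probes and left out 713. Of the 413, 305 reached 50 on both arrays, 39 on the knockdown array alone and 69 on the control array alone, and 11 carried more than 1 miRNA name. Each side is 1 array, so differences are given as sizes with the standard error (SE) over replicate spots, which covers spot noise and not the spread between cultures, and there is no test of any difference at 24 h. No probe measured the Tgfb1 transcript, so the knockdown itself was not checked.

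A miRNA is a short RNA strand that guides Argonaute proteins to transcripts matching its seed, taken here as bases 2 to 8. miRNAs with the same seed share most predicted targets and form a family, and 1 hairpin precursor can give a mature miRNA from its 5′ arm and another from its 3′ arm. TGF-β signals through receptor kinases and SMAD proteins, which act on miRNA gene transcription and on the processing of some precursors. In the other direction, let-7 and miR-17 family members are known to repress transcripts of TGF-β receptors.

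The differences that stand out below concern a few families, and their mature sequences are shown to let members be compared. All sequences come from RefSeq on GRCm38.p6, run 5′ to 3′ and carry the seed in capitals. A RefSeq name matched 325 of the 413 probes. The first set holds the 4 members matched to RefSeq that carry the seed AGCAGCA, all at least 2-fold lower in the knockdown. miR-15a-5p lies at chr14:61632075-61632096 and miR-195a-5p at chr11:70235062-70235082. The mature miR-16-5p is encoded at both chr14:61631936-61631957 and chr3:69009918-69009939, and miR-15b-5p lies beside the second at chr3:69009775-69009796.
miR-15a-5p: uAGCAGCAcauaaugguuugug
miR-15b-5p: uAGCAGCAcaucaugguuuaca
miR-16-5p: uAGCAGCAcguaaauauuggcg
miR-195a-5p: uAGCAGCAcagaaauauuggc

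The second set is let-7, in which near-identical members stood far apart. miR-3962 is shown with it because its first 17 bases are also found in let-7g-5p, starting there at base 3, although its own seed differs. let-7g-5p lies at chr9:106178846-106178867, let-7b-5p at chr15:85707325-85707346, let-7d-5p at chr13:48536078-48536099 and miR-3962 at chr1:194822035-194822054.
let-7a-5p: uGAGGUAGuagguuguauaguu
let-7b-5p: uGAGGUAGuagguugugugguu
let-7c-5p: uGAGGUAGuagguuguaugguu
let-7d-5p: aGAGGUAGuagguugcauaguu
let-7e-5p: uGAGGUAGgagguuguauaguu
let-7g-5p: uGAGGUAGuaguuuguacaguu
let-7i-5p: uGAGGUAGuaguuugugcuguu
miR-3962: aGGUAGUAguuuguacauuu

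The third set holds the 2 seed pairs whose members had opposite signs with 1 member at least 2-fold apart, together with miR-24-3p, which is cut from the same hairpins as the 2 miR-24 5′ arms. miR-193a-3p lies at chr11:79712009-79712030 and miR-193b-3p at chr16:13449570-13449591. The arms miR-24-1-5p and miR-24-3p lie at chr13:63301213-63301235 and chr13:63301251-63301272. The second hairpin gives miR-24-2-5p at chr8:84208839-84208860 and the same miR-24-3p at chr8:84208875-84208896.
miR-193a-3p: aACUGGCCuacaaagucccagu
miR-193b-3p: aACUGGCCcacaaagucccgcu
miR-24-1-5p: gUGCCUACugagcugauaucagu
miR-24-2-5p: gUGCCUACugagcugaaacagu
miR-24-3p: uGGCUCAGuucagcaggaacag

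The last set holds members with the seeds AAAGUGC and GUAAACA, for which every matched member was below 0, and 3 single miRNAs among the largest differences. miR-93-5p lies at chr5:138165574-138165596, miR-30a-5p at chr1:23272274-23272295, miR-210-3p at chr7:141221407-141221428, miR-22-3p at chr11:75463772-75463793 and miR-196b-3p at chr6:52230094-52230115.
miR-17-5p: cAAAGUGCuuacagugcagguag
miR-20a-5p: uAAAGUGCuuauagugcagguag
miR-93-5p: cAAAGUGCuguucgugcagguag
miR-30a-5p: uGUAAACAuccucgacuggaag
miR-30e-5p: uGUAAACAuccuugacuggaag
miR-210-3p: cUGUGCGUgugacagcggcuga
miR-22-3p: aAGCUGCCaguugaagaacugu
miR-196b-3p: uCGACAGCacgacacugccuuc

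The 2 arrays had similar coverage. The knockdown array had 344 and the control array 374 mouse probes at an intensity of at least 50, and median spot background was 125 on the knockdown array and 101 on the control array. Of the 32 spike-in probes at an intensity of at least 50, 28 were lower on the knockdown array before any scaling, with a median difference of -0.31 on the log2 scale. Among the 12 spike-ins at or above 500, 11 were lower there, with a median of -0.60 and a range of -1.57 to 0.31. The 413 mouse probes had an unscaled median of -0.0028. Array and line cannot be told apart, since each line has 1 array at this time. The label of a colorectal cancer line was set against colon epithelium miRNAs. Of 21 probes of these markers, 13 were at or below 0 on both arrays, among them those of miR-192, miR-194, miR-215, miR-429 and miR-200a. The 5 that passed the filter summed to 762.5 on the knockdown array and 645.0 on the control array, and the brightest were miR-147-3p and miR-375-3p. Over all 21 probes, negative values included, the sums went the other way, at 101.25 on the knockdown array and 241 on the control array.

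After quantile normalisation over all 6 arrays, log2 values of the 413 probes on the knockdown array and the control array correlated at 0.84 across probes, which share 1 array each and are not replicates. The difference, knockdown minus control on the log2 scale, had a median of -0.12 and an interquartile range of -0.50 to 0.32. It was above 0 for 169 probes, below 0 for 242 and equal to 0 for 2. At least 2-fold apart were 46 probes, 11.1% of the 413, with 11 higher (2.66%) and 35 lower (8.47%) in the knockdown. At least 4-fold apart were 1 higher and 2 lower. These counts use the normalised values of both arrays. In 7 of the 46 probes 1 side was below 50, so that only a bound on the fold holds, and the bound reached 2-fold in 4 of them. It fell short for miR-214-5p, miR-27a-5p and miR-34b-5p. With these 3 left out there were 10 higher and 33 lower. Among the 305 probes at or above 50 on both arrays, 8 were higher and 31 lower by at least 2-fold. The 5 brightest members, miR-5100, miR-709, miR-690, miR-3963 and miR-125b-5p, differed by -0.72 to 0.34. miR-5100 was the top probe of both arrays, at 36844 in the knockdown and 23485 in the control before scaling. Quantile normalisation gives the top probe of each array the same value, so its difference of 0 was set by the method. Transcripts were measured in bulk, so fewer cells carrying a miRNA and less of it per cell cannot be told apart.

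**Figure D1:**
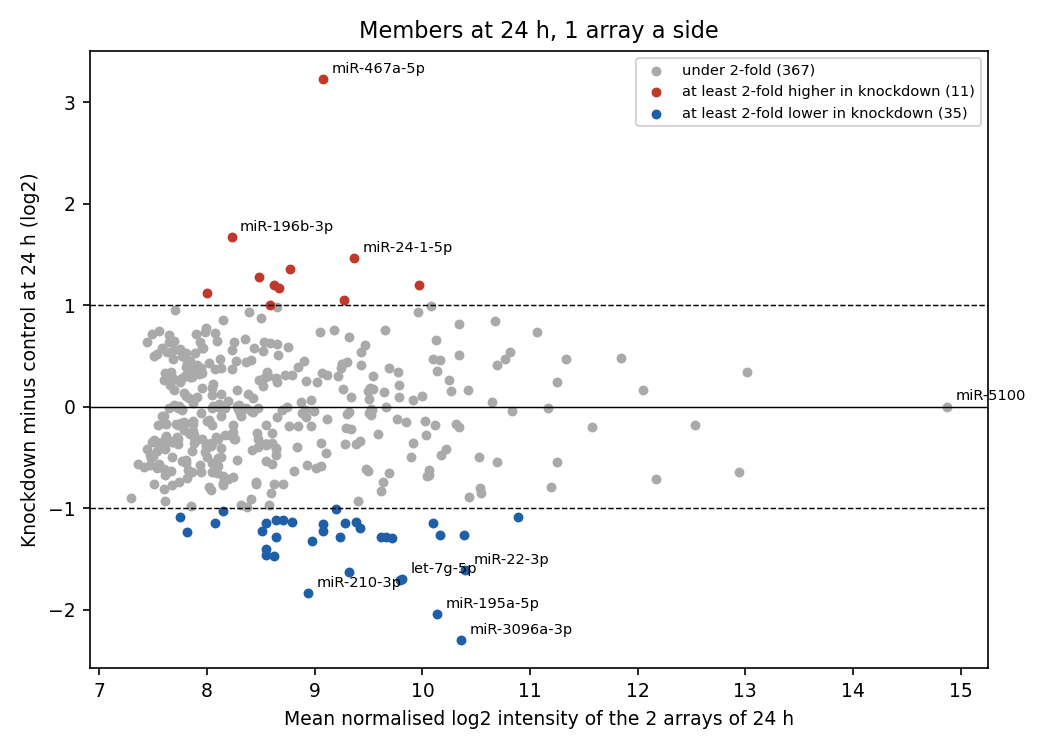
Difference between knockdown and control at 24 h (vertical axis, log2) against the mean normalised log2 intensity of both arrays (horizontal axis) for 413 mouse miRNA probes, each a point from 1 array a side. Red points are the 11 probes higher in the knockdown by 2-fold or more, blue points the 35 at least 2-fold lower, and dashed lines mark 2-fold. The probe of miR-5100 sits at 0 at the bright end, a value set by the quantile normalisation.

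On the control array, the medians of the higher and the lower probes lay on opposite sides of the median of all members. Before scaling, the 11 higher probes had a median intensity of 421.25 in the knockdown and 117.5 in the control. The 35 lower probes had medians of 192.75 in the knockdown and 697.5 in the control, and all 413 had medians of 150.25 in the knockdown and 192.75 in the control. The higher and lower groups were chosen on this difference, so these medians describe them and support nothing.

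The largest difference belonged to miR-467a-5p, encoded with many relatives in an intron of Sfmbt2. Its 4 spots read 1720, 1047, 2141 and 824 in the knockdown, against 3, -1, 50 and 72 in the control. All 4 knockdown spots lay above all control spots, and with the control mean below 50 only a bound holds, at least 8.36-fold in favour of the knockdown (3.23 ± 0.33, SE over spots, log2). Of the 31 members of the Sfmbt2 cluster it was the only one at least 2-fold higher, and the next, miR-669m-3p, differed by 0.31. The other arm of the same hairpin name, miR-467a-3p, differed by -0.05. At the low end, miR-466i-5p, with 376, 440, 275 and 224 in the knockdown and 1062, 1149, 1102 and 737 in the control, differed by -1.29 ± 0.19. The cluster median was -0.12, the same as that of all members, and it turned positive under spike-in scaling.

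miR-196b-3p, from a hairpin within the Hoxa gene cluster, read 401, 310, 353 and 306 in the knockdown, against 21, 14, 27 and 16 in the control. Its spots were tightly grouped on both arrays, and its level was higher by at least 2.70-fold (1.67 ± 0.07). miR-24-1-5p read 768, 952, 872 and 832 in the knockdown, against 244, 194, 278 and 284 in the control, which gives 2.75-fold (1.46 ± 0.10). It was above 50 on every spot of both arrays. miR-328-3p read 531, 423, 633 and 319 in the knockdown and 98, 100, 137 and 148 in the control, a difference of 1.35 ± 0.17. miR-719 read 367, 390, 306 and 373 in the knockdown and 80, 118, 50 and 67 in the control, a difference of 1.28 ± 0.12.

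The other 6 higher probes lay between 1.00 and 1.20. miR-668-3p and miR-381-5p, both from the imprinted Dlk1-Dio3 miRNA locus on chromosome 12, each differed by 1.20, with means of 1205 and 402.5 in the knockdown and 479.0 and 109.5 in the control. miR-1231-3p differed by 1.17 and miR-1264-3p by 1.05. miR-214-5p, cut from a hairpin beside miR-199a-2, averaged 202.0 in the knockdown and 25.75 in the control, so that only a bound of at least 1.90-fold can be given, short of 2-fold (1.12 in normalised values). miR-224-3p, at 1.00 ± 0.18, stood at the threshold, with miR-137-5p at 0.99 just outside it, then miR-3080-5p at 0.98 and miR-5127 at 0.95. For all 11 higher probes every knockdown spot lay above every control spot before scaling. The same was true of 29.1% of all members, so the separation of spots is not particular to them. The 11 were chosen on the mean of these same spots, so the separation supports nothing.

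On the lower side the largest difference belonged to miR-3096a-3p. Its spots read 557, 467, 279 and 295 in the knockdown, against 3068, 3818, 2098 and 1773 in the control, a difference of -2.30 ± 0.30. A second probe, shared between miR-3096a-3p and miR-3096b-3p, averaged 4007 in the knockdown and 3825 in the control and differed by 0.16 ± 0.10. The 2 probes that carry this name therefore disagree.

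miR-195a-5p led the miR-15/16 family, which represses Bcl2 and cyclin transcripts. Its spots read 381, 724, 212 and 244 in the knockdown, against 2072, 2269, 1862 and 1794 in the control, a difference of -2.05 ± 0.29. miR-16-5p read 273, 193, 136 and 169 in the knockdown and 1136, 857, 821 and 948 in the control, a difference of -1.63 ± 0.15. The 2 mature sequences differ at 2 positions over their shared length, and both were low on every knockdown spot. miR-15a-5p read 107, 269, 73 and 103 in the knockdown and 470, 475, 458 and 469 in the control (-1.14 ± 0.19). miR-15b-5p read 93, 73, 63 and 105 in the knockdown and 416, 357, 332 and 424 in the control (-1.15 ± 0.09). With miR-497-5p at -0.42 and the 2 arms of miR-503 at 0.31 and 0.16, the list of 7 had 0 higher and 4 lower by at least 2-fold and a median of -1.14. Counts for this and the other lists stand beside 2.66% higher and 8.47% lower among all 413 members, and each list median beside -0.12. The miR-15/16 median stayed below 0 in every setting tried, from -0.65 under spike-in scaling to -1.90 under plain subtraction.

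**Figure D2:**
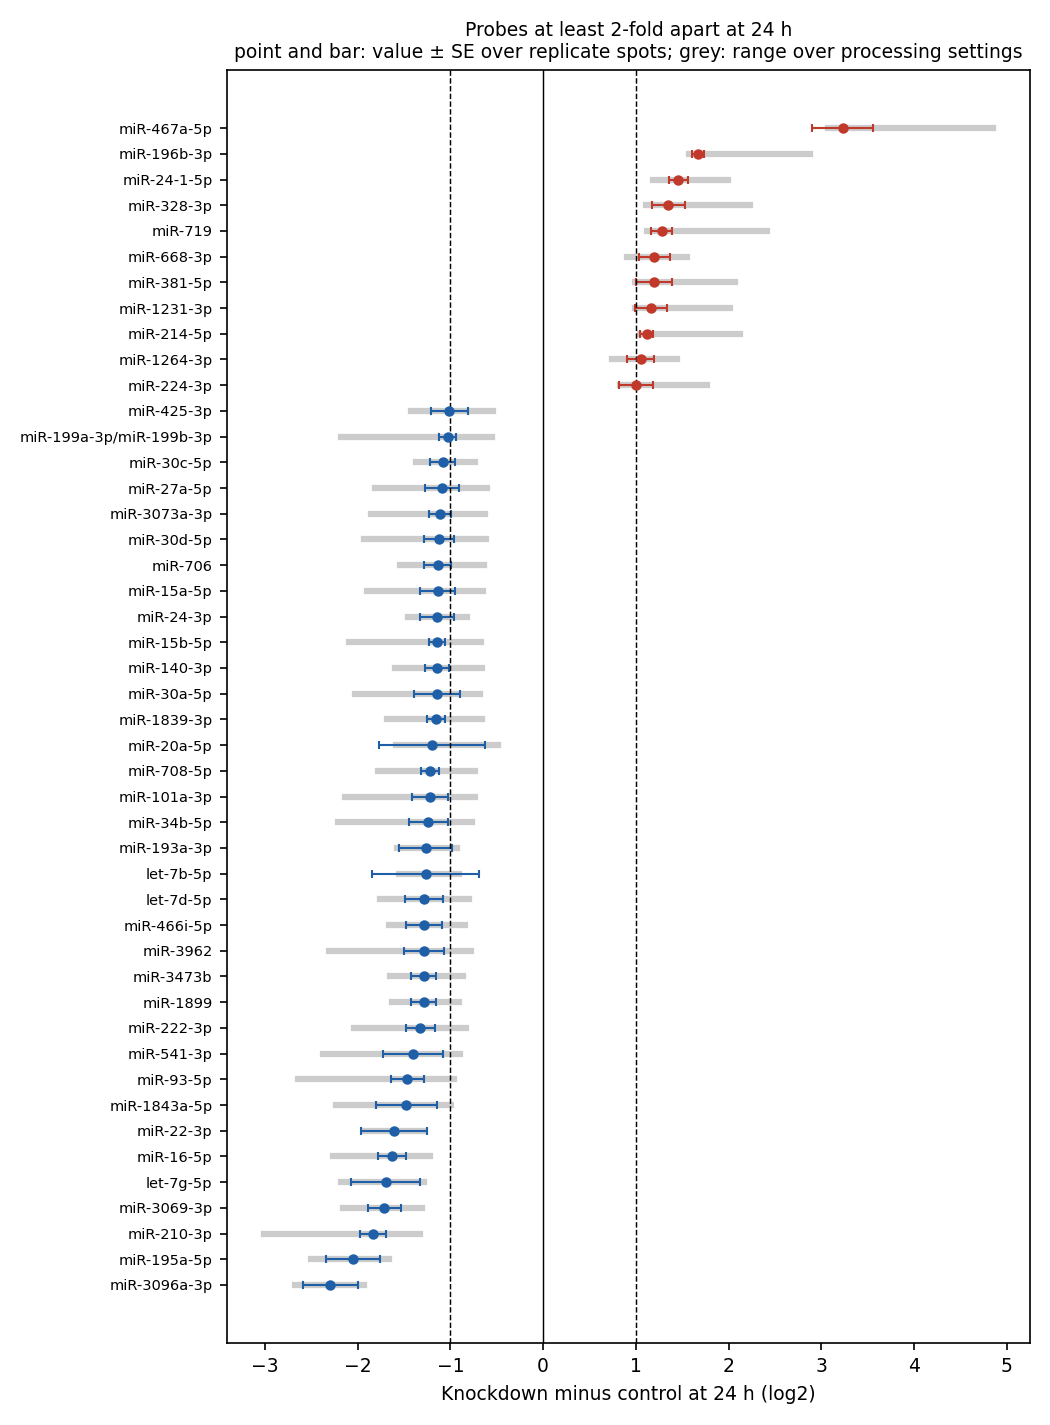
Difference between knockdown and control at 24 h (horizontal axis, log2) for the 46 probes at least 2-fold apart, from miR-467a-5p at the top to miR-3096a-3p at the bottom. Points with bars are the value ± SE over replicate spots, red higher and blue lower in the knockdown, grey bands span the 11 alternative settings, and no band crosses 0.

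miR-210-3p, the miRNA most closely tied to HIF and low oxygen, read 162, 115, 68 and 45 in the knockdown and 717, 698, 729 and 684 in the control, a difference of -1.83 ± 0.14. miR-22-3p read 559, 1197, 309 and 339 in the knockdown and 2146, 2068, 2014 and 1945 in the control, a difference of -1.61 ± 0.35. Its control spots were close together and its knockdown spots were not. miR-3069-3p read 490, 266, 241 and 286 in the knockdown and 1435, 1592, 1344 and 1212 in the control (-1.71 ± 0.17). Of the 8 hypoxia and stress members 3 were at least 2-fold lower and 0 higher, with a median of -0.68. The third was the shared probe of miR-199a-3p and miR-199b-3p, at 38.0 in the knockdown and 257.5 in the control. Its bound of 2.04-fold was taken at its own normalised value, so it is the same as its difference of -1.03. Under spike-in scaling the difference was -0.55. miR-212-3p, at 0.16, and miR-22-5p, at 0.45, were the members above 0.

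let-7 members, which repress Ras and Hmga2 transcripts, were spread widely. let-7g-5p read 661, 462, 145 and 177 in the knockdown and 1699, 1625, 1268 and 1059 in the control (-1.70 ± 0.37). let-7d-5p read 217, 234, 188 and 198 in the knockdown and 935, 932, 494 and 572 in the control (-1.28 ± 0.21). let-7b-5p read 697, 2202, 329 and 242 in the knockdown and 1788, 1963, 1802 and 1684 in the control (-1.27 ± 0.57). It was the only one of the 35 lower probes whose spots overlapped between the arrays, through the knockdown spot at 2202. Against these, let-7c-5p read 676, 618, 566 and 743 in the knockdown and 641, 846, 695 and 757 in the control (-0.15 ± 0.10). let-7b-5p and let-7c-5p differ at 1 position. let-7e-5p was at 0.05 ± 0.15 and let-7a-5p at 0.20 ± 0.31, while let-7i-5p was at -0.74. miR-3962 read 117, 177, 47 and 44 in the knockdown and 589, 444, 374 and 373 in the control (-1.29 ± 0.21). Over the 10 let-7 members 0 were higher and 3 lower by at least 2-fold. Their median of -0.13 turned positive under spike-in scaling, quantile normalisation over mouse probes alone and the authors' ratios. This list also holds the 3′ arms let-7d-3p at 0.68, let-7f-1-3p at 0.26 and let-7a-2-3p at -0.10, which lie outside the GAGGUAG seed family. The 8 matched members of that seed family, let-7 5′ arms and miR-1961, had a median of -0.67. How far a probe also binds near-identical let-7 RNAs was not tested.

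The seed family of miR-17, whose members are known to repress the type II TGF-β receptor, had 5 members matched to RefSeq, all below 0. Most of all 413 members were also below 0. miR-93-5p read 57, 12, 66 and 115 in the knockdown and 360, 378, 466 and 558 in the control (-1.46 ± 0.18). miR-20a-5p read -28, 500, 484 and 489 in the knockdown and 820, 809, 873 and 840 in the control (-1.20 ± 0.57), with 1 knockdown spot far below the other 3. With the median of spots in place of their mean it differed by -0.55. miR-106b-5p stood just outside 2-fold at -0.97 ± 0.06, miR-106a-5p at -0.69 and miR-17-5p at -0.35. In the wider list of the miR-17-92 cluster and its paralogs 11 of 13 members were below 0, 2 of them at least 2-fold, with miR-18a-3p at 0.64 and miR-18b-3p at 0.63 above. The list median of -0.35 turned positive under spike-in scaling.

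The miR-30 family had 3 of 7 members at least 2-fold lower and 0 higher, and its median of -0.83 stayed negative in every setting tried. miR-30c-5p read 1021, 1352, 792 and 1003 in the knockdown and 2389, 2454, 2309 and 2515 in the control (-1.08 ± 0.14). miR-30d-5p differed by -1.12 and miR-30a-5p, below 50 in the knockdown, was at least 2.01-fold lower. miR-30a-5p and miR-30e-5p differ at 1 position, and miR-30e-5p stood at -0.57. For miR-221 and miR-222, which repress the cell cycle inhibitor Cdkn1b, miR-222-3p read 200, 165, 103 and 127 in the knockdown and 646, 734, 460 and 544 in the control (-1.33 ± 0.16). miR-221-3p, with the same seed, stood at -0.77. Of the 5 p53-linked members miR-34b-5p had a knockdown mean of -19.0 and a control mean of 203.25, which bounds it at 1.73-fold or more and short of 2-fold, and miR-34a-5p, just outside 2-fold, was at -0.98.

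Among the remaining lower probes, miR-193a-3p read 480, 985, 371 and 343 in the knockdown and 1616, 1788, 1273 and 1439 in the control (-1.27 ± 0.29). Its seed partner miR-193b-3p read 303, 273, 374 and 305 in the knockdown and 109, 101, 122 and 123 in the control (0.87 ± 0.07). The 2 sequences differ at 3 positions, and their spots separated in opposite directions. miR-1843a-5p differed by -1.48, miR-541-3p by -1.40 and miR-1899 by -1.29. miR-3473b differed by -1.29, while miR-3473a, which shares a run of 16 bases with it, differed by 0.42. miR-708-5p and miR-101a-3p, a repressor of Ezh2, both differed by -1.22. miR-1839-3p, miR-706, miR-3073a-3p and miR-140-3p, a cartilage miRNA from an intron of Wwp2, lay between -1.16 and -1.11. miR-27a-5p, below 50 in the knockdown, was bounded at 1.57-fold or more, short of 2-fold. miR-425-3p, at -1.01 ± 0.20, stood nearest the threshold, and miR-1953 lay just outside it at -0.98. For 34 of the 35 lower probes every knockdown spot lay below every control spot before scaling, against 20.3% of all members. The 35 were chosen on the mean of these same spots, so the separation describes them and supports nothing.

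Agreement within the array was examined from the 2 spots in each of 2 separate block ranges. The differences from the first and the second range correlated at 0.78 over the 413 probes. Of the higher probes 9 of 11 were past 2-fold in both ranges, and of the lower 23 of 35. The smallest values in either range were 0.76 for miR-224-3p and -0.48 for let-7b-5p, so all 46 kept their sign. The 46 were chosen on the mean over both ranges, so part of this agreement follows from the choice. The SE over spots had a median of 0.14 among all members and ran from 0.07 to 0.57 among the 46. Its maximum over all members was 1.43, for miR-3084-3p, whose spots read 5211, 3113, 245 and 188 in the knockdown and 8525, 4117, 395 and 519 in the control.

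Both arms were members for 44 hairpins, and the 2 arms of a hairpin had the same sign in 22 of them. The 5′ and 3′ differences correlated at -0.16 over these hairpins, some of which share an arm, and the median gap between arms was 0.57. In 11 hairpins at least 1 arm was 2-fold apart, with the same sign in 5, and 6 of these 11 had an arm below 50 on 1 array. In 23 of the 44 an arm was below 50 on 1 of the arrays, so that its difference is approximate, and in the other 21 the signs were the same in 10. The widest gap was in Mir24-1, with miR-24-1-5p at 1.46 and miR-24-3p at -1.14. miR-24-3p read 576, 609, 509 and 352 in the knockdown and 1109, 1261, 1567 and 1700 in the control, and it is also made from Mir24-2, whose 5′ arm miR-24-2-5p stood at -0.76. miR-24-2-5p had a mean of -26.0 in the knockdown and 89.0 in the control, and its first 16 bases are those of miR-24-1-5p. Opposite signs were also seen for miR-22 (5′ arm 0.45, 3′ arm -1.61) and let-7d (-1.28 and 0.68), with both arms above 50 on both arrays. Signs were opposite for miR-3069, miR-34b and miR-214 as well, each with its 5′ arm below 50 on 1 array. In miR-210 both arms were below 0, at -0.49 and -1.83, as they were in miR-27a, miR-1843a and miR-199a.

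**Figure D3:**
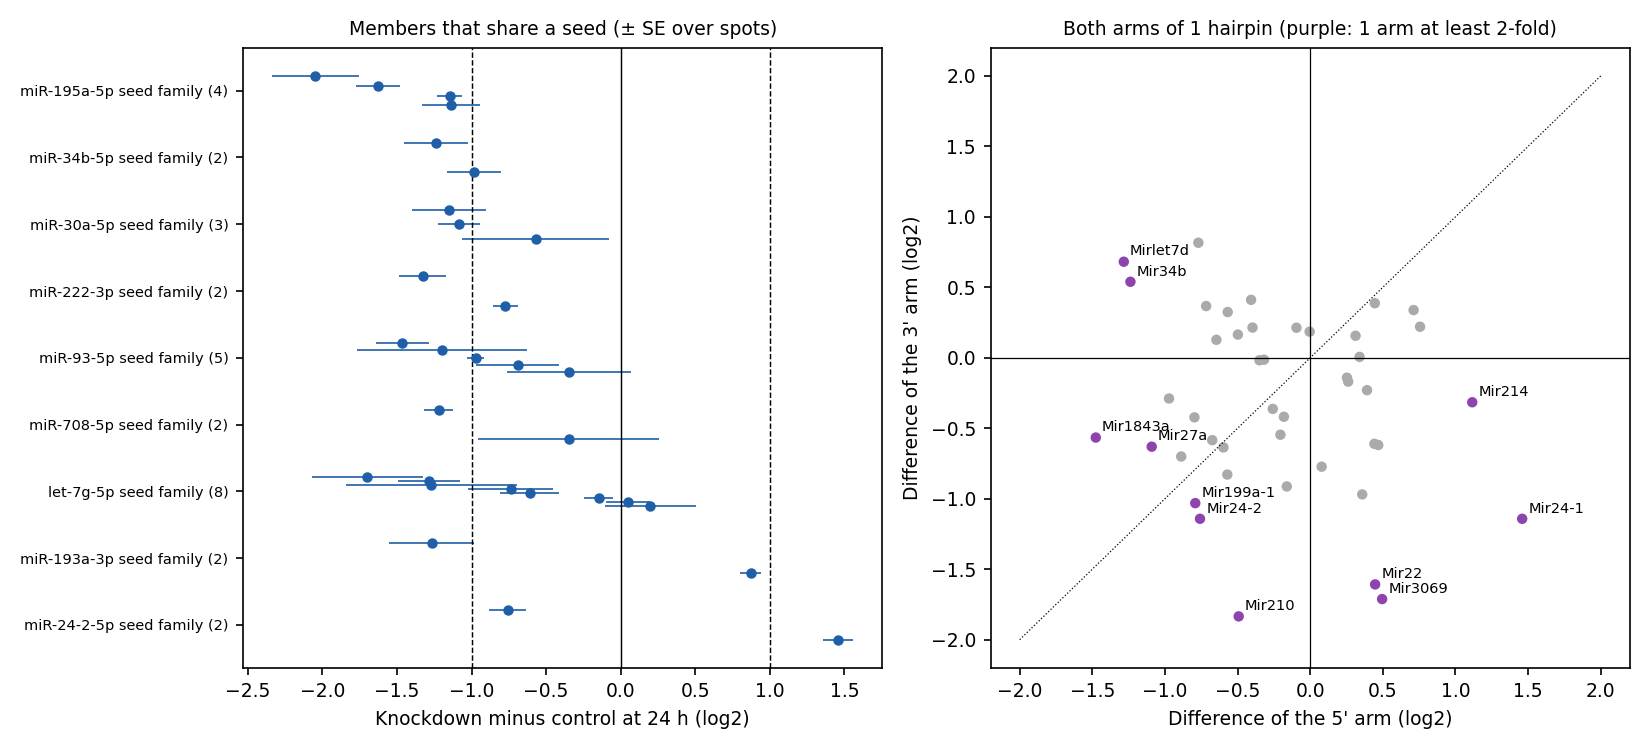
Left, differences at 24 h (knockdown minus control, log2, horizontal axis) with SE over spots for families of RefSeq-matched members that share a seed and hold a probe at least 2-fold apart, named after their lowest member; the 4 matched members of the miR-195a-5p family all lie below -1. Right, the difference of the 3′ arm (vertical axis, log2) against that of the 5′ arm (horizontal axis, log2) for 44 hairpins, with the 11 that hold an arm at least 2-fold apart in purple and equality dotted, and Mir24-1 at the lower right has the widest gap.

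Members that share a seed lay close together in some families and far apart in others. Seeds were read only for members whose name matched RefSeq, so a family may hold further members. miR-497-5p at -0.42, miR-30b-5p at -0.77 and miR-30d-5p at -1.12, listed above with the miR-15/16 and miR-30 families, had no match. Of 24 seed families with at least 2 matched members, AGCAGCA had 4 of 4 past 2-fold, from -2.05 to -1.14. GUAAACA had 2 of 3 and AAAGUGC 2 of 5, while GAGGUAG, of let-7 and miR-1961, had 3 of 8 and ran from -1.70 to 0.20. Among all 413 members 11.1% were at least 2-fold apart. The median range within a family was 0.57. In ACUGGCC, where both members were above 50 on both arrays, miR-193a-3p and miR-193b-3p lay 2.14 apart. miRNAs whose hairpins lie within 10 kb of each other were grouped as clusters. In Mir23a, Mir27a and Mir24-2 at chr8:84208518-84208921 all 5 members were below 0, 2 of them at least 2-fold, miR-27a-5p in normalised values only. The other, miR-24-3p, is also made from Mir24-1. In Mir106b, Mir25 and Mir93 at chr5:138165321-138165818, in an intron of Mcm7, all 5 members were below 0 and 1 was at least 2-fold lower. Most of all 413 members were below 0 as well, and 8.47% were at least 2-fold lower. The Dlk1-Dio3 stretch at chr12:109712508-109747960 had 17 members, 2 of them at least 2-fold higher and 1, miR-541-3p, at least 2-fold lower, with a median of 0.39. Base composition went weakly with the difference. Over the 325 matched members the share of G and C correlated with it at 0.18. The 83 members with the lowest share had a median of -0.19 and the 66 with the highest a median of 0.18.

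Lists of miRNAs tied to TGF-β in the literature had similar medians whichever direction had been reported. The lists took both arms of each named hairpin, so they also hold arms that the literature may not have reported. Of 35 probes of miRNAs reported as induced by TGF-β 19 were members, with 2 higher and 3 lower by at least 2-fold and a median of -0.48. The higher ones were miR-24-1-5p and miR-214-5p, whose opposite arms miR-24-3p and miR-214-3p were at -1.14 and -0.32. The lower ones were miR-24-3p, miR-27a-5p and the shared miR-199a-3p and miR-199b-3p probe. Of these miR-214-5p and miR-27a-5p reach 2-fold in normalised values only. miR-21a-5p, whose processing is promoted by SMADs in human cells, read 628, 585, 838 and 1826 in the knockdown and 1945, 1910, 1523 and 1587 in the control (-0.80 ± 0.34), so 1 knockdown spot lay among the control spots. Of 34 probes of miRNAs reported as repressed by TGF-β 16 were members, with 0 higher and 3 lower, all of the miR-30 family, and a median of -0.49. miR-29a-3p and miR-29b-3p, which repress collagen transcripts, were at 0.41 and 0.21, and miR-29c-3p at -0.79. Both list medians came close to 0 and turned positive under spike-in scaling, at 0.03 and 0.01, where all members had a median of 0.36. Of the miR-200 family and miR-205, which hold Zeb1 and Zeb2 in check, 2 of 14 probes were members. They were miR-141-5p at -0.28 and miR-200c-3p at -0.01, the latter dim at 96.75 in the knockdown and 113.75 in the control. The opposite arm miR-141-3p was not a member, at -56.5 in the knockdown and -39.25 in the control.

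Among the other lists, the miR-23/27/24 clusters had 1 of 8 higher and 2 lower with a median of -0.72. The colorectal cancer list had 1 of 8 higher, miR-196b-3p, and 1 lower, miR-20a-5p, with a median of -0.64. Neither median turned sign in any setting. The miR-10, miR-99/100 and miR-125 group had 0 of 8 past 2-fold and a median of -0.25, with a positive value under spike-in scaling. The Dlk1-Dio3 list had 2 of 28 higher and 1 lower with a median of 0.32, and the miR-290-295 cluster of pluripotent cells had 0 of 7 past 2-fold and a median of 0.26. Both stayed positive in every setting.

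Markers of other cells were read from the same arrays. Of 11 probes for markers of fibroblasts and smooth muscle 9 were members, with a summed intensity of 2260 in the knockdown and 4363 in the control. Of these 1 was higher, miR-214-5p in normalised values only, and 2 lower, miR-140-3p and the shared miR-199a-3p and miR-199b-3p probe, with a median of -0.50. Most of the sum was miR-199a-5p, at 1491 in the knockdown and 2706 in the control. miR-143-3p was at -14.0 in the knockdown and 68.5 in the control, and miR-145a-5p at 26.75 in the knockdown and 42.25 in the control. Blood cell markers had 5 of 18 probes as members, summing to 1272 in the knockdown and 2362 in the control, with 0 past 2-fold and a median of -0.65. Of this sum miR-142-3p made 880.25 in the knockdown and 1754 in the control, while miR-223, miR-451a, miR-144 and miR-126 were at or below 0 on both arrays. Neuron, muscle and liver markers had 13 of 32 probes as members, with 0 past 2-fold, a median of 0.16 and sums of 3221 in the knockdown and 2678 in the control. Another 14 of the 32 were at or below 0 on both arrays. The brightest were miR-137-5p, at 1226 in the knockdown and 566.5 in the control, and miR-122-3p, at 615.25 in the knockdown and 586.5 in the control. The opposite arms miR-137-3p and miR-122-5p were below 0 on both arrays. The part of other cells in the differences above was not tested.

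**Figure D4:**
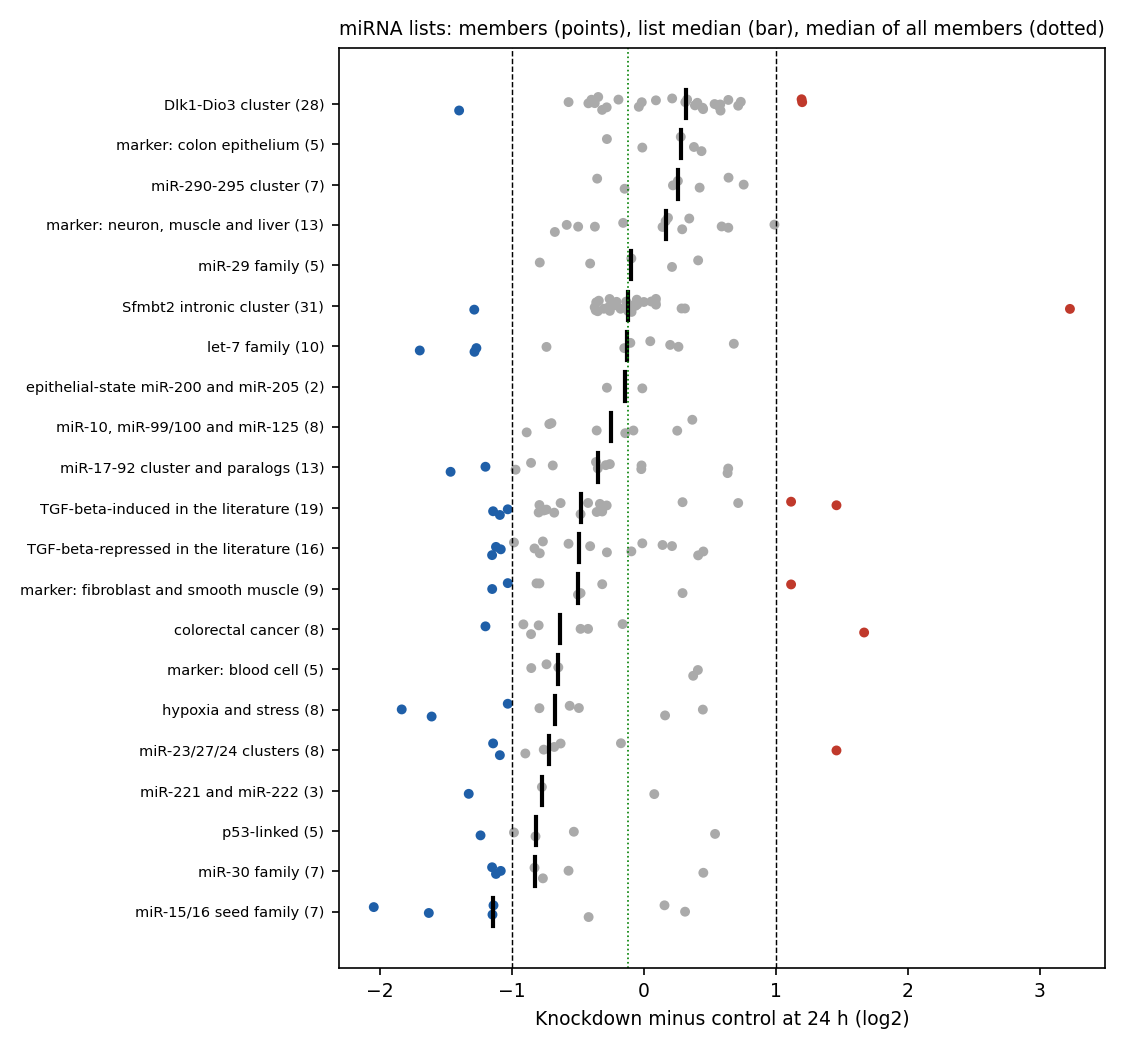
Differences at 24 h (knockdown minus control, log2, horizontal axis) of the members of 21 miRNA lists (rows, with the number of members), where black bars are list medians and the dotted line is the median of all 413 members at -0.12. Points past the dashed 2-fold lines are red where higher and blue where lower in the knockdown, and the miR-15/16 family has the lowest median, -1.14.

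The same probes were followed at the later times, which come from other arrays of the same lines. The higher probes were mostly below 0 at both later times, and the lower probes were mostly above 0 at 48 h and below 0 again at 72 h. A side was below 50 for 5 of the 11 higher and 13 of the 35 lower probes at 48 h, and for 7 and 10 of them at 72 h, so these sizes are approximate. Of the 11 higher probes 8 were below 0 at 48 h, with a median of -0.35, and all 11 were below 0 at 72 h, with a median of -1.27 and 7 at least 2-fold lower. These are normalised signs. Before scaling at 72 h, miR-24-1-5p was at 978.5 in the knockdown and 642.75 in the control, and miR-1264-3p at 456 in the knockdown and 454 in the control. miR-467a-5p had intensities of 1433, -55.25 and -30.75 in the knockdown and 31.0, 1570 and 589.25 in the control at 24, 48 and 72 h, so 1 line was below 50 each time. miR-24-1-5p differed by 1.46, -0.68 and -0.12 at these times. Of the 35 lower probes 31 were above 0 at 48 h, 20 of them at least 2-fold, with a median of 1.53. At 72 h 32 of the 35 were below 0 in normalised values, 27 of them at least 2-fold, with a median of -1.82. Among these, miR-706 was at 668 in the knockdown and 416.5 in the control before scaling. miR-30a-5p was likewise brighter there, at 454.25 in the knockdown and 280.75 in the control. miR-195a-5p thus differed by -2.05 at 24 h, 1.51 at 48 h and -3.63 at 72 h, with both lines above 50 each time. miR-210-3p had intensities of 97.5, 1873 and -0.5 in the knockdown and 707.0, -38.75 and 1762 in the control. In all, 18 of the 35 were at least 2-fold higher at 48 h and at least 2-fold lower at 72 h. The exceptions included miR-1843a-5p and miR-1899, below 0 at all 3 times, and miR-541-3p, miR-425-3p and miR-27a-5p, at least 2-fold higher at 72 h.

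For comparison, at 48 h 16.9% of all 413 members were at least 2-fold higher and 12.6% at least 2-fold lower. At 72 h 15.3% were at least 2-fold higher and 26.6% at least 2-fold lower. Over the 413 probes the difference at 24 h correlated at -0.61 with that at 48 h and at 0.21 with that at 72 h, and the last 2 correlated at -0.26. These are correlations across probes of 6 arrays, and 1 array that stands apart moves all its probes. Whether the 24 h difference departs from the other times was tested with limma over the 372 mouse probes at or above 50 on at least 3 of the 6 arrays. It was called for 0 of 372 (0%), with a smallest adjusted p of 0.978 in limma. The 1 probe at an unadjusted p under 0.05 was miR-467a-5p, with its 24 h difference 6.35 above the mean of the others (limma adjusted p = 0.978). The fit leaves 1 residual degree of freedom per probe, so it says little about differences of the sizes seen here.

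**Figure D5:**
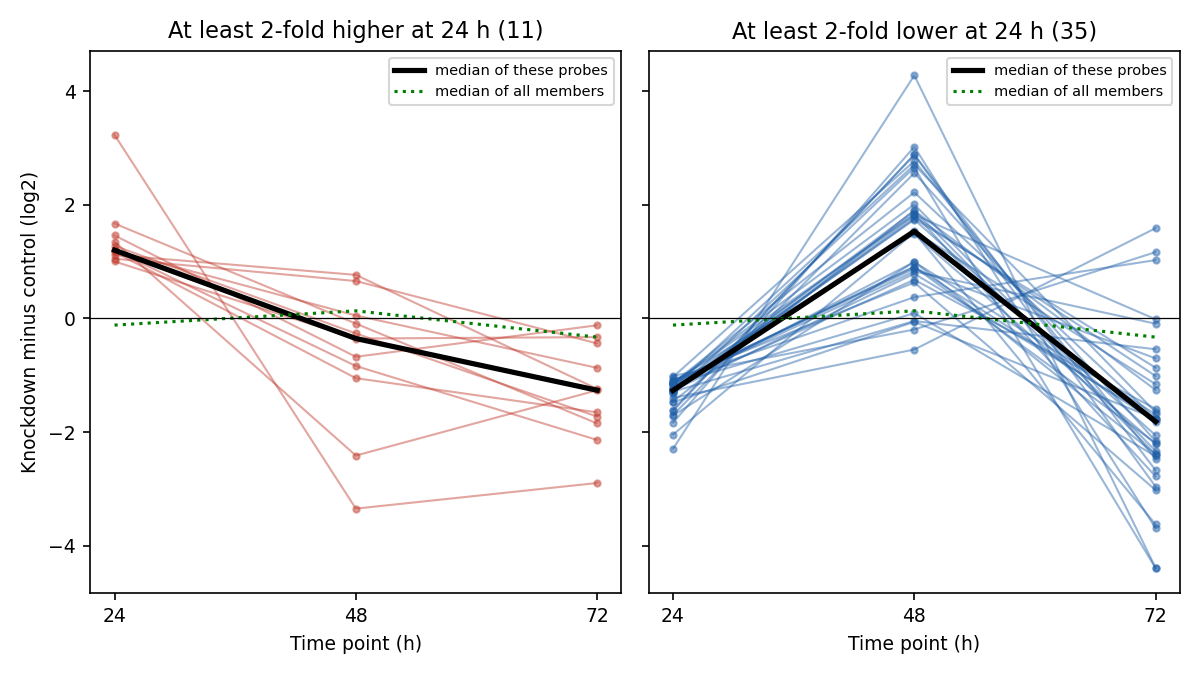
Difference between knockdown and control (vertical axis, log2) at 24, 48 and 72 h (horizontal axis) for the 11 probes at least 2-fold higher at 24 h (left, red) and the 35 at least 2-fold lower (right, blue), 1 line a probe. Black lines are the medians, which at 24, 48 and 72 h run 1.20, -0.35 and -1.27 on the left and -1.27, 1.53 and -1.82 on the right, and dotted green lines are the medians of all members.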

How the data were processed

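Per the file headers, the authors deposited for every spot a foreground and a background-subtracted intensity, not scaled between arrays, and a ratio per probe. Each deposited ratio matched the probe's median spot intensity after background subtraction, divided by 1 number per array, 337 for the knockdown and 397 for the control at 24 h. How those numbers were chosen, the scanner and the software are not given in the sources used here. Columns were assigned by the sample numbers in the labels.

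Intensities were corrected with normexp (offset 50) in limma 3.58.1 under R 4.3.3, averaged over 4 spots as log2, and quantile normalised over mouse, viral and unnamed probes of 6 arrays. Tables were made in Python 3.11.15. Where a side was below 50, the fold is a bound, taken against the lowest normalised value among mouse probes that reached 50 on that array, or against the probe's own value if that was higher. limma, with time point and line as terms, tested the 24 h difference against the other times, with Benjamini-Hochberg adjustment at 0.05. Alternatives covered background, offset, scaling, filter, fold and the authors' ratios (plus 0.15, as log2). The probes named are those at least 2-fold apart, the 3 on each side of the threshold, the 5 brightest, list members, their seed partners and both arms of their hairpins. A few probes outside this rule (miR-3084-3p, miR-467a-3p, the shared miR-3096 probe, miR-3473a and markers below 50) were named after their values were seen. The members and the 21 lists were chosen with earlier results of these data known. Sequences come from RefSeq on GRCm38.p6.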

Additional observations from a re-analysis of the deposited data

Results flagged for a closer look

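Differences at 24 h and 48 h pointed in opposite directions for many probes. Of the 35 probes at least 2-fold lower in the knockdown at 24 h, 20 were at least 2-fold higher in it at 48 h. Among all 413 members 16.9% were at least 2-fold higher at 48 h. The difference between the times was not tested for this group of probes. At 72 h 27 of the 35 were at least 2-fold lower again, against 26.6% of all members. At each later time a side was below 50 for some of the 35, so their sizes are approximate. miR-467a-5p was higher in the knockdown at 24 h, with a normalised difference of 3.23 on the log2 scale, and lower at 48 h and 72 h, at -3.35 and -2.90. The dimmer line was below 50 each time, so these sizes are approximate. Its 24 h difference was not called against the other times in limma (adjusted p = 0.978).

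Probes outside the mouse miRNAs also carried signal at 24 h. Of 2256 unnamed probes 672 reached 50 on either array. Before scaling, 41 of these were higher in the knockdown by 2-fold or more and 14 lower, with a median difference of 0.18. Of 57 viral miRNA probes 16 reached 50, with a median of 0.17 and 0 past 2-fold. None of the 7 negative control probes reached 50.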

How the results depend on the processing

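The counts of 11 higher and 35 lower probes depended on the scaling, and the cause was not tested. The higher count was 6 under median scaling, 19 without scaling, 17 with quantile normalisation over mouse probes and 65 under spike-in scaling, where the lower count was 7. Plain subtraction with a floor gave 44 higher and 75 lower, and the authors' ratios gave 38 higher and 76 lower. At 1.5-fold there were 45 higher and 87 lower, and at 3-fold 2 higher and 7 lower, which follows from the threshold itself. Higher probes made 23.9% of those past 2-fold as reported, 10.9% under median scaling, 39.6% without scaling, 40.5% with quantile normalisation over mouse probes and 90.3% under spike-in scaling. The median of all members was -0.12 as reported, -0.28 under median scaling, -0.0028 without scaling and 0.36 under spike-in scaling. The sign of each of the 46 probes was the same in all 11 settings of background, scaling and summary. Past 2-fold in all of them were 6 higher probes (miR-467a-5p, miR-196b-3p, miR-24-1-5p, miR-328-3p, miR-719 and, in normalised values only, miR-214-5p) and 7 lower (miR-3096a-3p, miR-195a-5p, miR-210-3p, miR-3069-3p, let-7g-5p, miR-16-5p and miR-22-3p). The test of 24 h against the other times called 0 probes in limma in each setting tried, with smallest adjusted p from 0.0511 under cyclic loess to 0.993, and 1 to 9 probes at an unadjusted p under 0.05. No paired analysis was possible because the 24 h difference rests on 1 array of each line, and for the same reason no replicate could be left out. The limma fit over 6 arrays has the time point as a block. One of the settings tried kept 24 h apart but pooled 48 h and 72 h in place of that block. The number of arrays limits the precision, and spot errors do not cover differences between cultures.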

Other observations

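Small RNAs other than miRNAs were also on the arrays. Of 23 such probes 14 had an intensity of at least 50 at 24 h, and before scaling 2 were at least 2-fold lower in the knockdown and 0 higher. SNORD2, a small nucleolar RNA, averaged 1877 in the knockdown and 7982 in the control, a difference of -2.02 on the log2 scale. SNORD68 averaged 595.0 in the knockdown and 1573 in the control, a difference of -1.16. The U6 spliceosomal RNA probe averaged 952.5 in the knockdown and 893.0 in the control, a difference of 0.11, and the 5S rRNA probe 1527 in the knockdown and 1883 in the control, a difference of -0.24. These differences are unscaled, and on the same scale the spike-ins had a median of -0.31.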
